A study of Mus musculus with 10 samples.

Results

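The core and naive pluripotency factors were followed as 10 named genes: Pou5f1, Sox2, Nanog, Klf2, Klf4, Esrrb, Tfcp2l1, Zfp42, Prdm14 and Nr0b1. They were chosen by name and looked up in the 20325 genes of the expression table. All 10 were found, 9 under the symbol given here and Tfcp2l1 under its older symbol Tcfcp2l1, and all 10 were among the 13201 genes tested. The table covers polyA RNA-Seq of 5 mouse embryonic stem cell (mESC) lines with 2 libraries each. The Daxx-/- line, of strain 129/SvEv, lacks the H3.3 chaperone DAXX, and Daxx-/-;WT carries a WT DAXX transgene in that line. The H3.3 KO line, of mixed 129 x C57BL/6J background, lacks the histone variant H3.3. In H3.3 KO;WT the missing histone is supplied by a lentiviral WT copy, and in H3.3 KO;L126A-L130A by a copy with both residues changed. These rescued lines are also named by their transgene (with DAXX, with WT H3.3, with the mutant). All 5 lines were grown without feeders in 2i plus LIF, that is with 3 uM CHIR99021, 1 uM PD0325901 and the cytokine LIF. The transgenes were delivered by lentivirus under an EF1 promoter and selected with puromycin, and no parental line is among the samples analysed here. Each knockout is 1 line, so a line and its genotype cannot be told apart.

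Pluripotent stem cells are held in self-renewal by a network of transcription factors that bind each other's genes. OCT4 (encoded by Pou5f1) and SOX2 bind DNA as a pair and, with NANOG, form the core of this network. A second tier of factors, among them KLF2, KLF4, ESRRB and TFCP2L1, marks the naive state of the preimplantation epiblast and links the core to LIF signalling and to the inhibition of MEK and GSK3 that 2i provides. Zfp42 (REX1) is a widely used reporter of the naive state, PRDM14 restrains FGF signalling and DNA methylation, and NR0B1 (DAX1) is an orphan nuclear receptor that binds OCT4.

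Upstream sequence is shown for Sox2, Klf4, Nanog and Tfcp2l1, on which most of the comparisons turn. Each is the 250 bases before the RefSeq transcript start, 5′ to 3′ on the gene's strand, from the GRCm38.p6 assembly: Sox2 at chr3:34649745-34649994 (plus strand), Klf4 at chr4:55532476-55532725 (minus strand), Nanog at chr6:122707239-122707488 (plus strand) and Tfcp2l1 at chr1:118627695-118627944 (plus strand). Capitals mark matches, on either strand, to the 6 motifs described next.
Sox2: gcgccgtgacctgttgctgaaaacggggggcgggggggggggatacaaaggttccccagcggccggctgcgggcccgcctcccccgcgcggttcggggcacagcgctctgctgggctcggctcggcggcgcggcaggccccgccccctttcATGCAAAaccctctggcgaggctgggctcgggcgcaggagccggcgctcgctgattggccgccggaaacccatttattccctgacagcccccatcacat
Klf4: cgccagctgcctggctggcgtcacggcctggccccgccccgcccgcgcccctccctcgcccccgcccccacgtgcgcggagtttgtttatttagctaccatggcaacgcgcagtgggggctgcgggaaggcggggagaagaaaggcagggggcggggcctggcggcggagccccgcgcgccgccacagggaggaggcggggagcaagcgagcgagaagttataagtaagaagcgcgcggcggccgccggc
Nanog: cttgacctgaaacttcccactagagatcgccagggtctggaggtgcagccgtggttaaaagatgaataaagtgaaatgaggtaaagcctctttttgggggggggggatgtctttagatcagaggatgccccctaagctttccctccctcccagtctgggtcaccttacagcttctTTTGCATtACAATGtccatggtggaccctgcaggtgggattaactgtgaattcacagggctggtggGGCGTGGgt
Tfcp2l1: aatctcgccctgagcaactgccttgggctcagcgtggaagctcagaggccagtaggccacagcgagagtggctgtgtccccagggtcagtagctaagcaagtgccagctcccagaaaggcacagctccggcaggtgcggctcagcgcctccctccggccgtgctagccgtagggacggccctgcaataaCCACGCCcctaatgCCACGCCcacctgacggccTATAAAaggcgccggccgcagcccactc
RefSeq windows were found for 9 members, and Prdm14 is named only. The first 5 motifs were picked from background knowledge of these factors after the members' levels had been seen. The POU octamer ATGCNAAT was found in 1 of 9 members and in 2.86% of all 32851 windows, and the SOX letters ACAATG in 1 of 9 and 10.7%. The KLF letters GGNGTGG were found in 6 of 9 members and 29.2% of windows, the ESRRB letters AAGGTCA in 0 of 9 and 4.08%, and the TATA letters TATAAA in 2 of 9 and 12.4%. G and C made up 52% (Nanog) to 74% (Klf4) of the members' windows, against a median of 52.4% over all windows. The part of base composition in these counts was not tested, so they are no evidence of enrichment. A 6th motif, the shorter POU letters ATGCAAA, was added only after they had been seen in the Nanog and Sox2 sequences. Its count of 3 of 9 members, against 4.12% of windows, was therefore chosen on these sequences and is no evidence of enrichment. It overlaps the octamer in Zfp42. In Nanog it lies 75 to 69 bases before the start, beside the SOX letters at 67 to 62, and in Sox2 it lies at 99 to 93. A match is a description of letters and not of binding.

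The 10 members together took between 0.459% and 0.668% of each library, whose expected counts summed to 15463625.4 in the smallest and 21396585.1 in the largest. Levels are given as normalized CPM, the counts scaled to the library's sum over the tested genes after median-of-ratios scaling (CPM, counts scaled to a common total). Every member had at least 258 counts in every library. Replicates of each line differed by more than counting noise, most in Daxx-/- mESCs (chi-square per gene 68.8) and least in H3.3 KO;WT mESCs (10.4). Daxx-/- replicate 2 gave the lowest value of 6 of the 10 members.

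The targeted genes were checked first. Daxx was measured at 82.6 and 72.9 normalized CPM in Daxx-/- mESCs, 206.3 and 206 with DAXX, and 59.4 to 100.9 in the H3.3 lines. H3f3a, one of the genes that encode H3.3, was at 2.84 to 10.9 in the H3.3 lines against 381.7 to 493.9 in the Daxx lines. H3f3b, the other, was at 509 and 720 in H3.3 KO, 203.9 and 139.2 with WT H3.3, and 386.4 and 323.8 with the mutant. In the Daxx lines H3f3b was at 313.4 and 380.2 in Daxx-/- and 116.2 and 84.4 with DAXX, so both WT rescues were below their KO line. Counts summed over a gene do not show which exons the reads cover, so the Daxx and H3f3b rows do not test the knockouts.

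Scaled to transcript length, Pou5f1 was the most abundant member, with a median over libraries of 851.4 normalized CPM per kb and a range of 681.8 to 963.3. Zfp42 followed at a median of 424.3 and Nanog at 318.2 normalized CPM per kb. Sox2 (199.6), Esrrb (181.1), Tfcp2l1 (128.9), Klf2 (119.3) and Klf4 (116.8) formed a middle group of medians per kb. Nr0b1 (37.1) and Prdm14 (23.7) were lowest. The ranges over 10 libraries overlapped in 8 of the 9 neighbouring pairs of this order, and only Pou5f1 stood clear of its neighbour. Lengths were those of the longest GENCODE coding transcript, so the order depends on that choice of transcript.

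**Figure D1:**
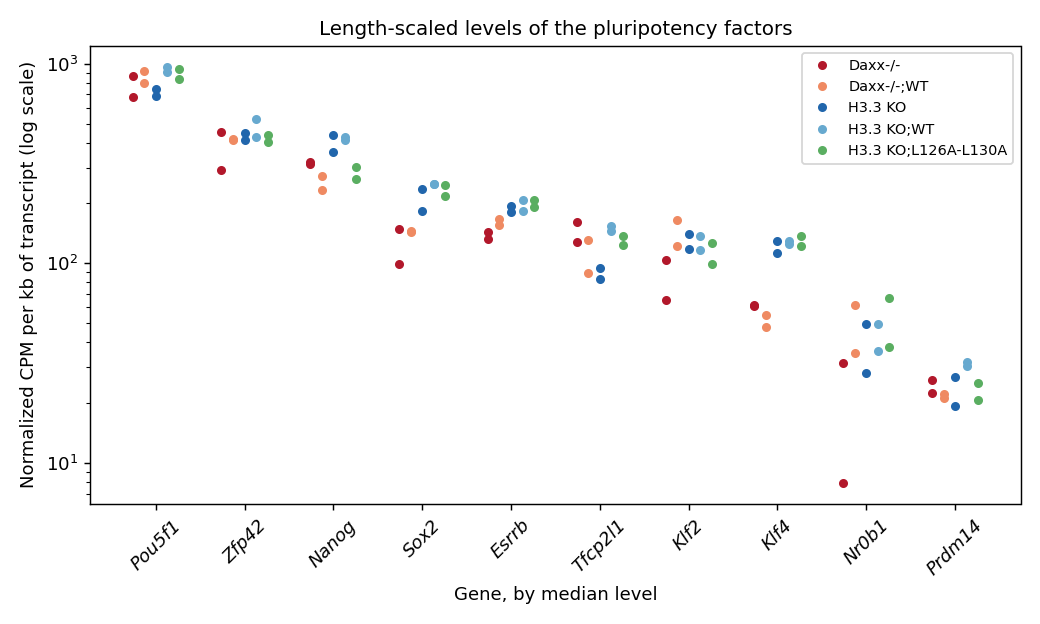
Normalized CPM per kb of transcript (log axis) for the 10 genes, ordered by median, with 1 point per library coloured by line. Pou5f1 lay above the other members in every library, with a lowest value of 681.8, and Nr0b1 in Daxx-/- replicate 2 was the lowest point at 7.92.

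Pou5f1 (chromosome 17, 35506018 to 35510772, GENCODE annotation of GRCm38) encodes OCT4. It was measured at 1183 and 928.6 normalized CPM in Daxx-/-, 1253 and 1092 with DAXX, 939.3 and 1017 in H3.3 KO, 1312 and 1237 with WT H3.3, and 1285 and 1136 with the mutant. Its level varied 1.41-fold from the lowest to the highest library, the narrowest range of the members. The annotated antisense gene Gm19553 overlaps it, and the strand setting of the counting is not given in the sources used here.

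Sox2 (chromosome 3, 34650405 to 34652461), a single-exon gene inside the long noncoding Sox2ot, was at 305.6 and 202.6 normalized CPM in Daxx-/- and 296.1 and 298.4 with DAXX. The H3.3 lines gave 373.7 and 482.7 in the KO, 514.9 and 515.1 with WT H3.3, and 447.6 and 507.4 with the mutant. All 6 libraries of the H3.3 lines were above all 4 of the Daxx lines. Nanog (chromosome 6, 122707489 to 122714633) was at 713.5 and 693.8 in Daxx-/-, 516.3 and 600.9 with DAXX, 797.4 and 967.7 in H3.3 KO, 913.4 and 952 with WT H3.3, and 584 and 670.6 normalized CPM with the mutant. The lowest Nanog levels were those of the DAXX-rescued line and the L126A-L130A line. The pseudogene Nanogpd, whose reads could be shared with Nanog, held counts equal to 1.43% to 6.22% of those of Nanog.

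Klf4 (chromosome 4, 55527143 to 55532466), a zinc finger factor downstream of LIF and STAT3, was at 187.4 and 183.9 normalized CPM in Daxx-/- and 144.5 and 166.1 with DAXX. It was at 340.5 and 389.8 in H3.3 KO, 392.7 and 379.1 with WT H3.3, and 366.8 and 416.2 with the mutant. The H3.3 lines did not overlap with the Daxx lines. Its relative Klf2 (chromosome 8, 72319033 to 72321656), which is sustained by MEK inhibition, was at 190.4 and 120.3 in Daxx-/-, 304 and 224.8 with DAXX, 216.1 and 259.6 in H3.3 KO, 252.8 and 215.2 with WT H3.3, and 231.7 and 182.7 normalized CPM with the mutant. Both Daxx-/- libraries lay below both DAXX-rescued libraries.

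Esrrb (chromosome 12, 86361117 to 86521628), an orphan nuclear receptor released by GSK3 inhibition, was at 613.6 and 567.7 normalized CPM in Daxx-/-, 713.2 and 666.9 with DAXX, 772.7 and 830.8 in H3.3 KO, 885.4 and 784.5 with WT H3.3, and 888.6 and 825.6 with the mutant. The Daxx lines again lay below every library of the H3.3 lines. Tfcp2l1 (chromosome 1, 118627945 to 118685168), a CP2 family factor that acts in the LIF and GSK3 arms, was at 1493 and 1187 in Daxx-/-, 828.8 and 1203 with DAXX, 772.7 and 876.6 in H3.3 KO, 1343 and 1418 with WT H3.3, and 1141 and 1268 normalized CPM with the mutant. H3.3 KO mESCs had the lowest mean of the 5 lines.

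Zfp42 (chromosome 8, 43295063 to 43306980) was at 838.1 and 540.5 normalized CPM in Daxx-/-, 768.5 and 759.1 with DAXX, 763.8 and 828 in H3.3 KO, 966.4 and 790.4 with WT H3.3, and 807.8 and 741.1 with the mutant. The spread of the Daxx-/- replicates covered the values of most other libraries. Prdm14 (chromosome 1, 13113457 to 13127163) was at 66.4 and 57.2 in Daxx-/-, 53.97 and 56.81 with DAXX, 49.46 and 68.81 in H3.3 KO, 78.25 and 81.73 with WT H3.3, and 52.86 and 64.21 normalized CPM with the mutant. The H3.3 KO;WT libraries were the highest. Nr0b1 (chromosome X, 86191764 to 86195947) was at 57.1 and 14.3 in Daxx-/-, 111.4 and 64 with DAXX, 51 and 89.6 in H3.3 KO, 89.2 and 65.6 with WT H3.3, and 121.4 and 68.5 normalized CPM with the mutant. It varied 8.48-fold over the libraries, the widest range of the members.

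**Figure D2:**
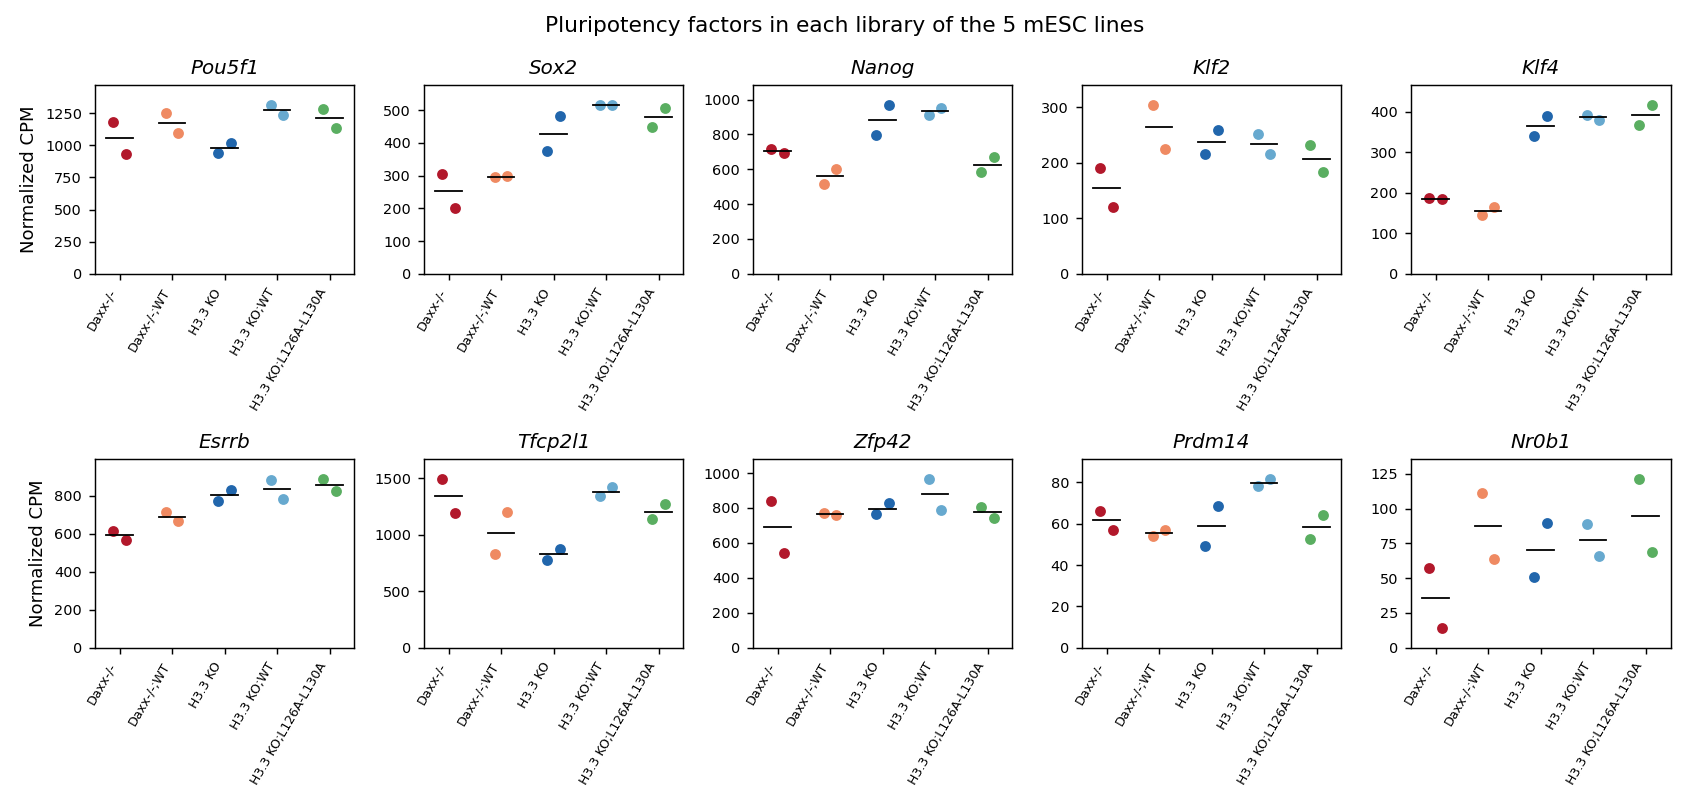
Normalized CPM of each gene (vertical axes from 0) in the 5 lines, with 1 point per library and a bar at the mean of the 2 libraries. Sox2, Klf4 and Esrrb were higher in all 6 libraries of the H3.3 lines than in the 4 libraries of the Daxx lines, and the replicates of Nr0b1 lay far apart.

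The members' median SD was close to that of all genes tested, which were not matched to the members by expression level. Single members differed, and the share of genes with a smaller SD between lines ran from 8.65% for Zfp42 to 90.2% for Nr0b1. The SD between line means had a median of 0.31 on the log2 scale over the 10 members and 0.31 over all genes tested, and the SD within lines a median of 0.20 and 0.23. Klf4 combined a large SD between lines (0.64) with a small one within lines (0.11). For Nr0b1 (0.66 and 0.76) and Zfp42 (0.14 and 0.23) the SD within lines was the larger of the pair.

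The first question was whether restoring DAXX to Daxx-/- mESCs altered the pluripotency factors. None of the 10 members passed an adjusted p of 0.05 in edgeR's quasi-likelihood test, where 1.41% of all genes tested did and 1.08% did with at least a 2-fold change. At an unadjusted p under 0.05 there were 2, Klf2 and Nanog. Klf2 was 0.77 higher on the log2 scale (SE 0.25, 95% interval 0.21 to 1.32, adjusted p = 0.128) and Nanog 0.33 lower (95% interval -0.66 to -0.01, adjusted p = 0.221). Nr0b1 had the largest estimate, 1.30 higher, with an interval of -0.02 to 2.62 (adjusted p = 0.235). Without Daxx-/- replicate 1 that estimate became 2.62 (adjusted p = 0.0252) and that of Klf2 1.14 (adjusted p = 0.0281), in a fit that called 13.9% of all genes. Without Daxx-/- replicate 2 they became 0.61 (adjusted p = 0.568) and 0.47 (adjusted p = 0.366), where 0.383% of all genes were called. DESeq2 called Klf2 (adjusted p = 0.0402) and 8.78% of all genes. An edgeR fit with a term for the replicate number (a replicate block) also called Klf2 (adjusted p = 0.0367), with 10.9% of all genes. Pou5f1 (interval -0.19 to 0.49), Sox2 (-0.23 to 0.68) and Zfp42 (-0.30 to 0.60) had log2 intervals on both sides of 0 that did not reach a 2-fold change. The libraries did not overlap for 6 of 10 members, against 46.4% of all genes.

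The next comparison asked the same of WT H3.3 in H3.3 KO mESCs. Again 0 of 10 members passed in edgeR, with 3 at an unadjusted p under 0.05, where 0.25% of all genes passed and 0.25% did so with at least a 2-fold change. Tfcp2l1 was 0.74 higher on the log2 scale (SE 0.19, 95% interval 0.31 to 1.18, adjusted p = 0.175), and both rescued libraries were above both KO libraries. DESeq2 called it (adjusted p = 0.0205), with 2.91% of all genes, as did a fit of these 4 libraries alone (adjusted p = 0.0144), with 5.69%. Pou5f1 (0.38, interval 0.04 to 0.72) and Prdm14 (0.44, interval 0.02 to 0.85) had log2 estimates above 0 at adjusted p = 0.319 and 0.346. Nanog (0.08, interval -0.25 to 0.41), Klf4 (0.08, -0.23 to 0.38) and Esrrb (0.06, -0.22 to 0.34) had narrow log2 intervals around 0. Libraries did not overlap for 4 of 10 members and for 56% of all genes.

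L126A-L130A H3.3, changed at residues that the study mutated together, was compared with the KO line and with the WT rescue. Against the KO, 0 members passed in edgeR and 2 had an unadjusted p under 0.05, where 0.962% of all genes passed and 0.788% with at least a 2-fold change. Nanog was 0.49 lower on the log2 scale (SE 0.14, 95% interval -0.82 to -0.17, adjusted p = 0.137) and Tfcp2l1 0.55 higher (interval 0.12 to 0.98, adjusted p = 0.198). Against WT H3.3, 0 members passed and 2 had an unadjusted p under 0.05, where 0.53% of all genes passed and 0.515% with at least a 2-fold change. Nanog was 0.57 lower (SE 0.14, interval -0.90 to -0.25, adjusted p = 0.137) and Prdm14 0.45 lower (interval -0.86 to -0.04, adjusted p = 0.361). Both comparisons use the mutant's libraries, so they are not independent. Nanog was called by DESeq2 in both, at adjusted p = 0.0371 against the KO and 0.0131 against WT H3.3. DESeq2 called 5.79% and 3.62% of all genes there. The replicate block also called Nanog in both (adjusted p = 0.0401 and 0.036), with 5.86% and 2.36% of all genes. The groups did not overlap for 3 of 10 members against the KO (50.1% of all genes) and for 4 of 10 against WT H3.3 (45.3%).

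**Figure D3:**
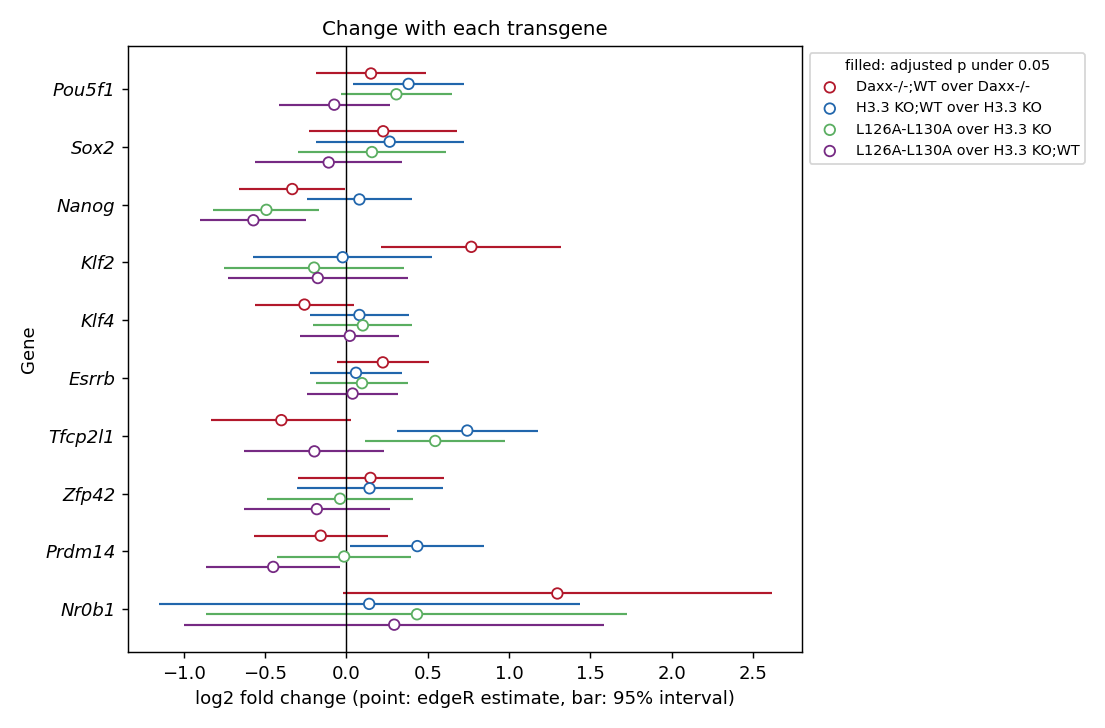
Log2 fold changes (horizontal axis, edgeR estimate with its 95% interval) of each gene in the 4 comparisons that involve a transgene. Every point is open because no adjusted p was under 0.05, and the intervals of Nr0b1 were the widest, from -0.02 to 2.62 with DAXX.

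Against their KO lines, the members' median log2 fold change was 0.15 for DAXX, 0.14 for WT H3.3 and 0.10 for the mutant, and over all genes tested it was -0.02, 0.02 and 0.03. A test of whether the change with DAXX differed from that with WT H3.3, which share no library, passed for 0 of 10 members in edgeR (0.0455% of all genes). The lowest p was that of Tfcp2l1, whose log2 change with DAXX was 1.14 below that with WT H3.3 (difference -1.14, interval -1.75 to -0.53, unadjusted p = 0.00217, adjusted p = 0.185). DESeq2 gave that difference an adjusted p of 0.0107. The share of all genes that DESeq2 called for this difference is not reported here, so that call cannot be set beside it. For DAXX against the mutant, 0 of 10 members passed (0.0227% of all genes), and the Tfcp2l1 difference was -0.95 (interval -1.56 to -0.34, adjusted p = 0.289).

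The lines of the 2 genetic backgrounds differed more. Between H3.3 KO and Daxx-/- mESCs, 4 of 10 members passed the test, against 23.7% of all genes. Klf4 was 0.98 higher in H3.3 KO mESCs on the log2 scale (SE 0.14, adjusted p = 0.00243), Sox2 0.75 higher (SE 0.20, adjusted p = 0.0279) and Esrrb 0.44 higher (SE 0.12, adjusted p = 0.0331), while Tfcp2l1 was lower (-0.70, SE 0.19, adjusted p = 0.0297). With at least a 2-fold change, 0 members passed, against 11.7% of all genes. The Klf4 call was kept in every alternative run, with an adjusted p of at most 0.0293. The other calls were not: with these 4 libraries fitted alone, the adjusted p was 0.109 for Sox2, 0.153 for Esrrb and 0.0688 for Tfcp2l1. Without the filter on low values the adjusted p of Esrrb was 0.0546, and with library size alone that of Tfcp2l1 was 0.0584. Sox2 also lost its call without Daxx-/- replicate 2 (0.49, adjusted p = 0.086), without H3.3 KO replicate 2 (0.56, adjusted p = 0.174), and without H3.3 KO;WT replicate 1 or 2 (0.75, adjusted p = 0.0509 and 0.0501). Esrrb lost it without any one of Daxx-/- replicate 2, either library of Daxx-/-;WT, H3.3 KO or H3.3 KO;WT, with adjusted p between 0.0524 and 0.164, and Tfcp2l1 without Daxx-/- replicate 1 or either library of H3.3 KO or H3.3 KO;WT, with adjusted p between 0.053 and 0.159. Without Daxx-/- replicate 1, Nr0b1 (2.29, adjusted p = 0.0147), Klf2 (0.98, adjusted p = 0.0191) and Zfp42 (0.56, adjusted p = 0.0325) passed as well, in a fit that called 28.5% of all genes. Without Daxx-/- replicate 2 these estimates were 0.30 for Nr0b1, 0.32 for Klf2 and -0.07 for Zfp42, and none passed. Klf2 also passed with library size alone (0.71, adjusted p = 0.0344) and with the replicate block (0.66, adjusted p = 0.0278). These settings called 24.6% and 34.9% of all genes.

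Between H3.3 KO;WT and Daxx-/-;WT mESCs, 3 of 10 members passed, all higher in the H3.3 line, against 17.7% of all genes, and 1 did so with at least a 2-fold change, against 8.45%. Klf4 was 1.31 higher on the log2 scale (SE 0.14, adjusted p = 0.00124), Sox2 0.79 higher (SE 0.20, adjusted p = 0.0283) and Nanog 0.74 higher (SE 0.15, adjusted p = 0.0106). Klf4 passed in every alternative, with an adjusted p of at most 0.0183. Sox2 lost the call without any one of the 4 libraries compared (adjusted p between 0.1 and 0.149), and Nanog without Daxx-/-;WT replicate 1 (0.63, adjusted p = 0.102) or H3.3 KO;WT replicate 1 or 2 (0.77 and 0.71, adjusted p = 0.0642 and 0.0809). Prdm14 (0.53, adjusted p = 0.0742) was called by DESeq2 (adjusted p = 0.0475), with 24.3% of all genes. It also passed with these 4 libraries fitted alone (adjusted p = 0.0163, 32.7% of all genes) and with the replicate block (adjusted p = 0.0393, 29.9%). Over the whole set of libraries, Sox2, Klf4 and Esrrb were higher in all 6 libraries of the H3.3 lines than in all 4 of the Daxx lines, and 22.8% of all genes separated in either direction. These lines differ in genotype, strain and derivation, which cannot be told apart. The Y-linked genes Ddx3y, Eif2s3y, Kdm5d and Uty summed to at most 0.112 normalized CPM in the Daxx lines and to 115.2 to 409.7 in the H3.3 lines, and their part in the differences was not tested.

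**Figure D4:**
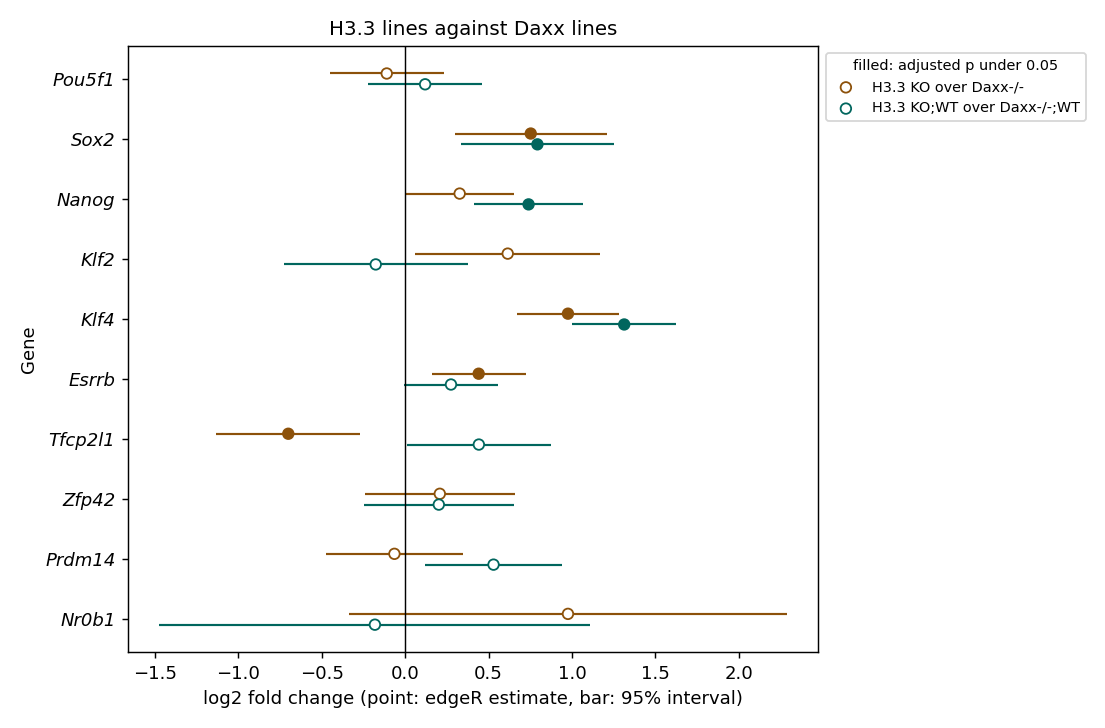
Log2 fold changes (edgeR estimate with its 95% interval) of each gene between the H3.3 lines and the Daxx lines, for the knockouts and for the WT rescues. Filled points had an adjusted p under 0.05, and Klf4 was filled in both comparisons, at 0.98 and 1.31.

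Other genes of the network were counted from lists. The counts here and in the paragraphs below are to be read beside the share of all genes tested that passed. That share was 23.7% between the KO lines and 17.7% between the rescued lines. It was 1.41% with DAXX, 0.25% with WT H3.3, 0.962% with the mutant against the KO and 0.53% with the mutant against WT H3.3. Of 14 further naive factors, 1 fell with DAXX and 0 passed in the other 3 transgene comparisons. It was Dppa3 (Stella), a maternal factor that guards against DNA methylation changes, at 61.1 and 155.6 normalized CPM in Daxx-/- and 6.79 and 11.2 in Daxx-/-;WT mESCs (-3.60 on the log2 scale, SE 0.52, adjusted p = 0.0244). Between the KO lines 4 were higher in H3.3 KO mESCs: Klf5 (1.07, adjusted p = 0.00193), a KLF factor that shares targets with Klf2 and Klf4, Tbx3 (1.15, adjusted p = 0.00485), Dppa2 (1.88, adjusted p = 0.0472) and Tet2 (1.08, adjusted p = 0.0254). Between the rescued lines 3 were higher in the H3.3 line, namely Klf5 (1.49), Tbx3 (0.75) and Dppa3 (1.81). Klf5 was at 40.3 to 66.3 normalized CPM in the Daxx lines and 114.6 to 148 in the H3.3 lines.

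Of 10 genes of the LIF-STAT3 arm, 0 passed in the 4 transgene comparisons. Lif (-0.88, adjusted p = 0.0279) and the phosphatase gene Ptpn11 (-0.75, adjusted p = 0.0134) were lower in H3.3 KO than in Daxx-/- mESCs on the log2 scale. Between the rescued lines the kinase gene Pim1 was higher (1.26) and Ptpn11 lower (-0.58) in the H3.3 line. Of 15 stem cell marker genes, 1 passed in the transgene comparisons: Pecam1, a cell adhesion receptor, fell with the mutant against the KO (-1.42, SE 0.17, adjusted p = 0.0157), from 331.1 and 288.7 to 103.4 and 128 normalized CPM. Between the KO lines Jam2 (1.29), Pecam1 (1.10) and the Nodal co-receptor gene Tdgf1 (0.72) were higher in H3.3 KO, and between the rescued lines Jam2 (1.495), Tdgf1 (1.11) and Fbxo15 (0.94) were.

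Of 18 partners and regulators of the core tested, 0 passed in the transgene comparisons. Those that differed between backgrounds were all lower in the H3.3 lines: 5 between the KO lines, with Arid3b (-1.01), Zfp143 (-0.74), Nacc1 (-0.71), Wdr5 (-0.59) and Ctnnb1 (-0.43), and 4 between the rescued lines, with Nacc1 (-0.97), Arid3b (-0.81), Thap11 (-0.77) and Ctnnb1 (-0.66). Of 28 tested relatives of the members' families, 0 passed in the transgene comparisons. Between the KO lines Klf3, Klf5, Klf6 and Klf9 were higher in H3.3 KO (0.72, 1.07, 0.77 and 0.66) and Pou2f1 was lower (-1.72). Between the rescued lines Klf3, Klf5 and Klf6 were higher (0.72, 1.49 and 0.70) and Pou2f1 lower (-1.16).

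Markers of other states were counted to check the identity of the cells. The 10 members summed to 4496 to 6748 normalized CPM in the libraries, against 158.2 to 444.6 for 10 formative and primed epiblast genes, 14.5 to 82.1 for 10 primitive endoderm genes, 71.2 to 132.2 for 9 trophoblast genes, 3.22 to 11.5 for 6 early mesoderm and endoderm genes, 90.5 to 261.9 for 5 neural genes and 4.38 to 40.8 for 6 fibroblast genes. In the transgene comparisons 0 genes passed among the formative and primed, trophoblast, mesoderm and endoderm, neural and fibroblast lists. Col4a1, a basement membrane collagen listed for primitive endoderm, fell with the mutant against the KO (-1.70, adjusted p = 0.0454) and against WT H3.3 (-2.11, adjusted p = 0.0333). Otx2, a factor of the primed epiblast, was at 7.87 to 22.6 normalized CPM in the Daxx lines and 0.889 to 1.42 in the H3.3 lines (-2.99 between the KO lines, adjusted p = 0.00347, and -3.91 between the rescued lines, adjusted p = 0.00225).

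Further marker differences between the KO lines were higher Zic2 (1.63), Foxd3 (1.68) and Nes (0.82) and lower Col4a1 (-1.63), Eomes (-0.93), Neurod1 (-2.23) and Thy1 (-2.11) in H3.3 KO mESCs. Between the rescued lines Tfap2c (0.75), Gsc (2.08), Nes (0.92) and Col1a1 (2.42) were higher and Eomes (-1.60) and Col4a1 (-1.31) lower in the H3.3 line. Levels of Col1a1 were low, at 0.496 and 0.954 normalized CPM with DAXX and 3.37 and 4.42 with WT H3.3. Those of Gsc were 1.14 and 2.695 against 6.92 and 9.29. Of 6 fibroblast genes 2 were tested, and the other, Thy1, was at 11.65 and 16.1 with DAXX and 5.08 and 6.68 with WT H3.3. Of 8 genes of the 2-cell-like state tested, 0 passed in the transgene comparisons, and Tdpoz3 (6.93) and Tdpoz4 (3.73) were higher in H3.3 KO than in Daxx-/- mESCs. Tdpoz3 was at 0 and 0 normalized CPM in Daxx-/- and 0.51 and 1.24 in H3.3 KO. Tdpoz4 was at 0.191 and 0.11 against 1.16 and 2.74. Levels this near the floor leave the size of both log2 changes poorly determined. The 8 genes together summed to 120 and 166.7 normalized CPM in H3.3 KO, 114.6 and 168.5 with WT H3.3, and 1.69 and 31 with the mutant. In the Daxx lines the sum was 46.7 and 13.2 in Daxx-/- and 62.9 and 7.2 with DAXX. Of the Y-linked genes, Ddx3y (1.74) and Uty (1.93) were higher with the mutant than in the KO, both at adjusted p = 0.0186. Kdm5d did not pass there and was at 1.59 and 1.18 normalized CPM in the KO and 0.135 and 0 with the mutant. All 4 were called higher in H3.3 KO than in Daxx-/- mESCs, and in H3.3 KO;WT than in Daxx-/-;WT mESCs. Tcstv1, Tcstv3 and Xist were not analysed here.

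**Figure D5:**
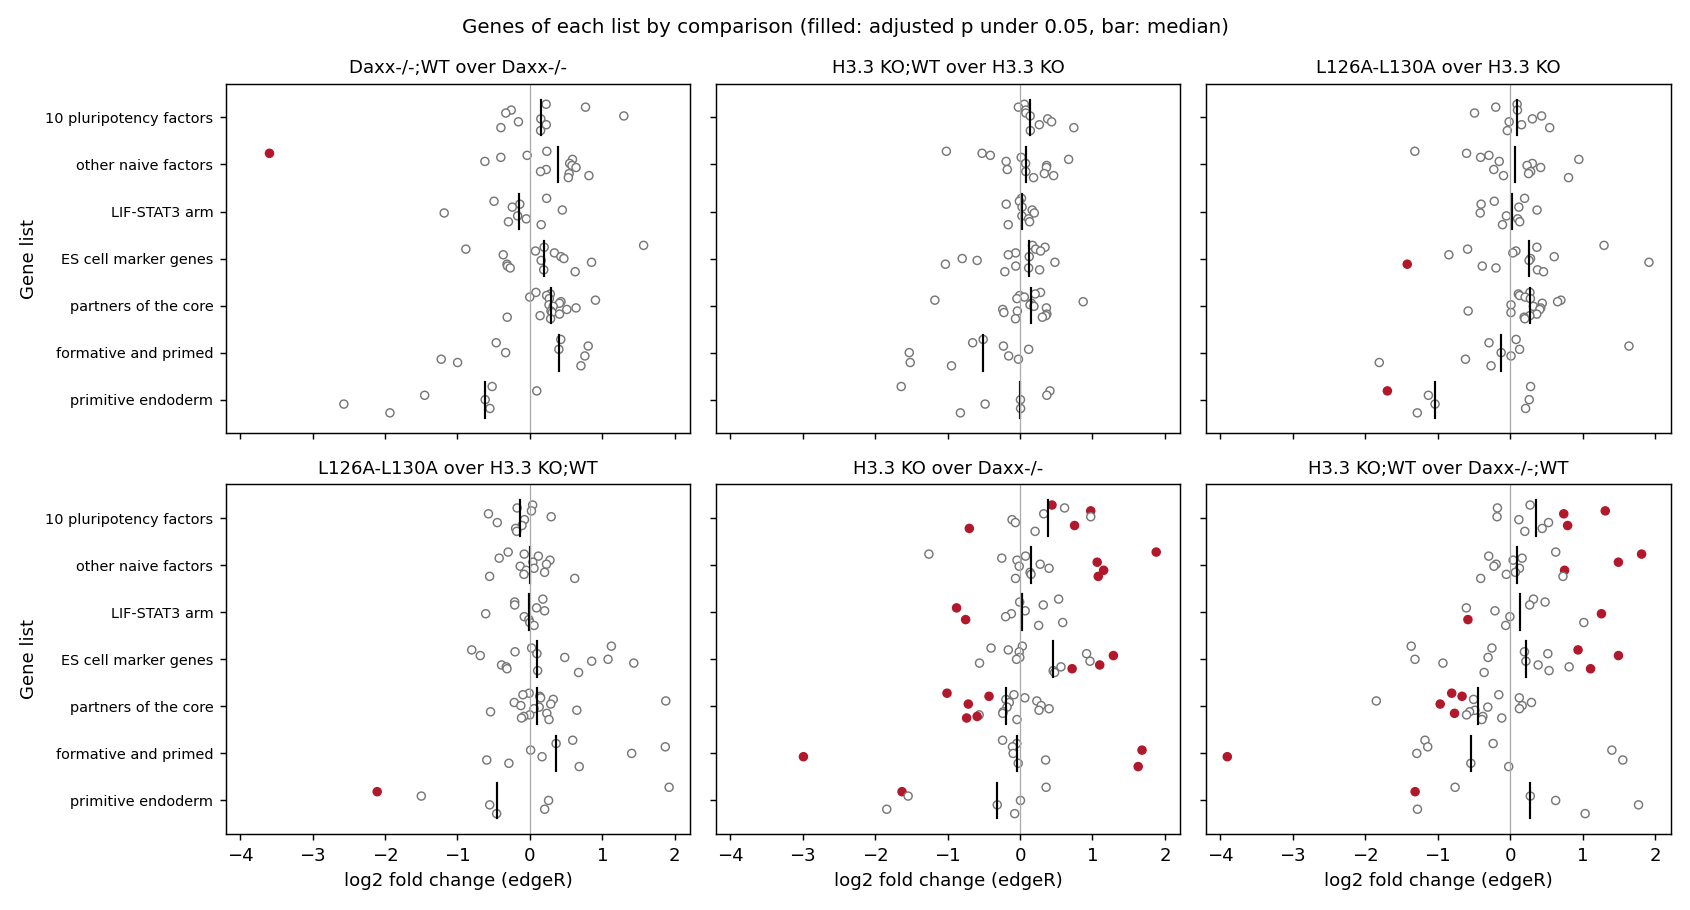
Log2 fold changes (horizontal axis, edgeR) of the tested genes of 7 lists in the 4 transgene comparisons and the 2 comparisons between backgrounds, with a bar at each list's median. Filled points had an adjusted p under 0.05: with DAXX the filled point was Dppa3 at -3.60, and with WT H3.3 there was none.

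The members' patterns over the 10 libraries were compared as a description, on log2(CPM + 1). Of their 45 pairs, 39 had a Pearson r above 0, with a median of 0.43 and a range of -0.40 to 0.91. Pairs of other genes were not summarized in the same way, so these figures do not set the members apart. The values were not adjusted for line, background or replicate number. The most similar gene was Fzr1 for Pou5f1 (r = 0.94), Nynrin for Sox2 (0.98), D1Ertd622e for Nanog (0.98), Slc39a9 for Klf2 (0.97) and Sdc2 for Klf4 (0.99). For Esrrb it was Mettl6 (r = 0.98), for Tfcp2l1 Uggt1 (0.91), for Zfp42 Prpf4b (0.94) and for Prdm14 Gm13889 (0.93). The libraries are pairs from 5 lines of 2 backgrounds, so these values are shared by few independent points. Each gene was picked as the highest among the 13201 tested, with the 10 members left out of the choice.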

How the data were processed

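PolyA RNA-Seq libraries of 5 mESC lines, 2 each, were grouped by the line in their labels. The authors aligned reads with Bowtie and estimated expression with RSEM, and the submitters' processing notes name the mm9 build. The values deposited for each gene are expected counts, although named TPM, since totals differ between libraries and between 61.4% and 67.6% of values are whole. Versions, annotation and strand setting are not given in the sources used here. The labels spell the mutant L126A-L130A, a spelling kept here, while the study's text mostly writes L126A-I130A.

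Expected counts were rounded and fitted with edgeR 4.0.16 in R 4.3.3 (quasi-likelihood test, abundance trend, all 10 libraries, line as the only term, median-of-ratios factors of 0.936 to 1.04). Genes reaching 1 CPM in 2 or more libraries entered, with Benjamini-Hochberg adjustment over 13201 genes. Calls were made at an adjusted p under 0.05, also with at least a 2-fold change. The standard error is the log2 fold change divided by the square root of F, and 95% intervals use t with 9.07 degrees of freedom. With 2 libraries per line the spread is borrowed across lines.

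The members, gene lists and tests were chosen with earlier results of these data known. All members were named, as were list genes that passed (at most 5 per list and comparison) and the most similar gene of each member, of which that of Nr0b1 is not reported here. Alternatives were TMM factors, library size alone, other filters, DESeq2 1.42.0, limma 3.58.1 on log2(CPM + 1) and log2(CPM + 0.1), each comparison alone, a replicate block and leaving out each library. Adding Nanogpd counts to Nanog was chosen after seeing the data, as were the 6 promoter motifs, the last of them after reading the sequences. Positions were matched by symbol to GENCODE (GRCm38) and upstream windows to RefSeq (GRCm38.p6), and coordinates of mm9 were not used. Python 3.11.15 with pandas 2.3.3 and matplotlib 3.10.9 was used for the rest.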

Additional observations from a re-analysis of the deposited data

How the results depend on the processing

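What 2 libraries per line could show differed by member. Between the KO lines Esrrb was called at 0.44 on the log2 scale, while Nr0b1, whose SD within lines was 0.76, was not called at 0.98. DESeq2 called 1 member with DAXX, 1 with WT H3.3, 1 with the mutant against the KO, 1 with the mutant against WT H3.3 and 1 in the difference of DAXX and WT H3.3 effects, where edgeR called 0 in each. In the first 4 it called 8.78%, 2.91%, 5.79% and 3.62% of all genes. For the difference of effects that share is not reported here. Each comparison fitted alone called 1 with WT H3.3 (5.69% of all genes) and 1 between the KO lines (8.4%), where all libraries together called 0 and 4. With DAXX the fit alone called 0 members, and only 0.00802% of all genes. DESeq2, each comparison fitted alone and the block called 4 each between the rescued lines, with Prdm14 as the addition. They called 24.3%, 32.7% and 29.9% of all genes there. Without single libraries the number called was 0 to 2 with DAXX, 1 to 6 between the KO lines and 1 to 3 between the rescued lines. The highest of the first pair came without Daxx-/- replicate 1, where 13.9% and 28.5% of all genes were called, and calls over all genes fell to 7.42% between the KO lines without H3.3 KO replicate 2 and to 3.32% between the rescued lines without Daxx-/-;WT replicate 1. TMM factors, library size alone, the filters and both limma scales called 0 members in each transgene comparison. They called 3 or 4 members between the KO lines and 3 between the rescued lines. Their calls over all genes moved more. With DAXX these were 1.45% to 2.53%, against 1.41% in the main fit. With the mutant against the KO they were 0.977% to 1.7%, against 0.962%. The cause of these changes was not tested, except that a line with 1 library left is assumed to vary like the others.

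Replicate numbers are shared between lines, and same-numbered libraries deviated together in 7 of 10 pairs of lines (r over 0.1, range -0.04 to 0.57). A shared replicate effect is therefore possible in those pairs. The main fit did not pair the numbers, because no label says that they mark a batch and not every pair of lines correlated. The correlation was 0.57 for the Daxx lines and 0.42 for WT H3.3 and the mutant. It was 0.28 for the KO and WT H3.3, and 0.07 for the KO and the mutant. With a replicate block, 1 member was called with DAXX (Klf2), 1 with the mutant against the KO (Nanog) and 1 with the mutant against WT H3.3 (Nanog), and 5 and 4 were called between the KO and rescued lines. Over all genes the block called 10.9%, 5.86%, 2.36%, 34.9% and 29.9% in these comparisons.

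Signs of small estimates turned in 45 of the results recomputed for single members, none of them called. With library size alone Prdm14 became 0.02 between the KO lines and Sox2 0.001 for the difference of DAXX and WT H3.3 effects, and with a mean of at least 5 CPM Zfp42 became -0.02 for that difference. The other 42 came from leaving out single libraries, which gave these log2 ranges. The ranges with DAXX were those of Pou5f1 (-0.019 to 0.34), Sox2 (-0.046 to 0.55) and Zfp42 (-0.14 to 0.50). The ranges with WT H3.3 were those of Nanog (-0.055 to 0.22), Klf2 (-0.15 to 0.11), Klf4 (-0.016 to 0.18), Esrrb (-0.032 to 0.14), Zfp42 (-0.011 to 0.28) and Nr0b1 (-0.21 to 0.60). The ranges with the mutant against the KO were those of Sox2 (-0.015 to 0.35), Zfp42 (-0.10 to 0.024), Prdm14 (-0.23 to 0.24) and Nr0b1 (-0.033 to 0.90). The ranges with the mutant against WT H3.3 were those of Pou5f1 (-0.17 to 0.011), Klf4 (-0.073 to 0.11), Esrrb (-0.047 to 0.13) and Nr0b1 (-0.18 to 0.65). The ranges between the KO lines were those of Pou5f1 (-0.27 to 0.073), Zfp42 (-0.074 to 0.56) and Prdm14 (-0.32 to 0.16). The ranges between the rescued lines were those of Klf2 (-0.38 to 0.052) and Nr0b1 (-0.52 to 0.27). The ranges for the difference of DAXX and WT H3.3 effects were those of Sox2 (-0.31 to 0.29) and Zfp42 (-0.28 to 0.36). The ranges for the difference of DAXX and mutant effects were those of Pou5f1 (-0.32 to 0.033), Sox2 (-0.20 to 0.40), Zfp42 (-0.092 to 0.54) and Prdm14 (-0.40 to 0.076). Adding Nanogpd counts to Nanog, chosen after seeing the data, changed no call (0.70 between the rescued lines, adjusted p = 0.0124).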
